A study of Drosophila melanogaster with 54 samples.

Results

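Mesodermal cells with a constitutively active EGF receptor were compared with mesodermal cells of embryos that lack function of spi, the gene of the receptor's main embryonic ligand Spitz. The 6 arrays were chosen by their labels alone: the 3 titled EGFR gain of function (1A, 1B and 1C) and the 3 titled spi loss of function (1A, 1B and 1C) in set 1, out of 54 arrays in 18 groups of 3. All embryos of the comparison were Drosophila melanogaster with Twi-GAL4 and UAS-GFP, which put GFP into Twist-expressing cells. The EGFR embryos also carried UAS-lambda-Top, an activated receptor made only where Twi-GAL4 is active. The spi embryos were mutant in every cell, with no further transgene in the labels. Neither the allele nor the way mutant embryos were selected is given in the sources used here. The wild type embryos carried Twi-GAL4 and UAS-GFP alone. Embryos were aged to between 5.5 and 7.5 h at 25 °C (stage 11) and dissociated, and GFP positive cells were sorted by flow cytometry. RNA was hybridised to Affymetrix arrays.

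Spitz is cleaved and secreted, binds EGFR and acts through Ras and MAP kinase, which change the activity of ETS transcription factors and the repressor Capicua. In the embryonic mesoderm this pathway, with Notch and other signals, sets aside muscle progenitors. These divide into founder myoblasts, which carry the identity of a muscle, while their neighbours become fusion-competent myoblasts that fuse with the founders. The direct comparison asks how far the mesodermal transcriptome lies apart when the receptor is always on and when its main ligand is missing.

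Values below are the deposited log2 expression values, where a step of 1 is a doubling, and differences are EGFR minus spi on the log2 scale with the standard error of the limma fit. A probe set was called at a Benjamini-Hochberg adjusted p below 0.05 over all 13966 probe sets tested. The median of the 9 GFP positive arrays of set 1 lay between 4.57 and 4.615. Arrays of one genotype correlated with r = 0.927 to 0.94 across probe sets, and EGFR arrays with spi arrays at r = 0.902 to 0.926. Hybridisation control probes were brighter on the arrays lettered A (9.607 to 10.141) than on B and C (7.541 to 7.798) in all 3 genotypes alike. The spread was estimated in 1 fit of all 15 arrays of set 1. These also include 3 FGFR gain of function and 3 wild type GFP negative arrays. No label says that the 3 arrays of a group came from separate collections, so p-values measure the spread between arrays within the groups, which may be technical. The number of arrays limits the precision.

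The sorted cells of both genotypes carried mesodermal RNA. The mean of 4 measured mesodermal markers, among them zfh1 and htl, was 7.97 to 8.05 on EGFR arrays, 7.16 to 7.23 on spi arrays and 7.14 to 7.31 on wild type GFP positive arrays. On wild type GFP negative arrays it was 4.12 to 4.74. Markers of other cell types were present as well. Neural markers (5 measured) averaged 6.44 to 6.60 on EGFR arrays and 5.87 to 6.16 on spi arrays, with 6.81 to 6.88 in wild type. Ectodermal markers (5) averaged 5.92 to 6.17 and 5.83 to 6.00 on the EGFR and spi arrays, with 6.22 to 6.57 in wild type. Hemocyte markers (4) averaged 7.29 to 7.50 on EGFR arrays, 7.73 to 7.81 on spi arrays and 7.42 to 7.57 in wild type. Endodermal markers (3) averaged 3.46 to 4.35 on EGFR arrays, 4.83 to 5.12 on spi arrays and 3.96 to 4.59 in wild type, so for both lists the spi arrays stood above the others. In these bulk samples, fewer cells of a type and less RNA per cell cannot be told apart. Nor can receptor activity in the mesoderm be told apart from the loss of the ligand in the tissues around it, since the genotypes differ in both, or from other differences between the fly stocks.

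EGFR and spi arrays differed at 850 probe sets, 6.09% of those tested. EGFR was higher at 360 of them (2.58%) and lower at 490 (3.51%). The EGFR and spi values did not overlap at any called probe set, while over all probe sets 27% did not overlap. The change was at least 2-fold at 303 called probe sets, 135 higher and 168 lower in EGFR. Named through their brightest probe set, 700 of 10825 genes were called, 288 higher and 412 lower. The median difference over all probe sets was -0.009. The count rested in part on single arrays: it was 501 without EGFR 1A, 556 without spi 1A, 493 without spi 1C and 302 without all arrays lettered A. Against the shared wild type arrays, 382 probe sets (2.74%) were called for EGFR and 445 (3.19%) for spi. Those comparisons share the wild type arrays with each other, and each shares its EGFR or spi arrays with the direct comparison. Their calls are given below only to place genes beside wild type, and are not independent of the direct comparison.

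The receptor gene Egfr was read by 2 probe sets. The first probe set of Egfr had 7.98, 8.03 and 7.89 on EGFR arrays, against 7.31, 7.36 and 7.26 on spi arrays and 7.21, 7.33 and 7.25 on wild type arrays, a difference of 0.66 ± 0.13 (adjusted p = 0.00688). The other probe set of Egfr had 10.08, 9.90 and 10.03 on EGFR arrays, against 6.82, 6.73 and 6.84 on spi arrays and 6.72, 6.80 and 6.27 on wild type arrays, a difference of 3.21 ± 0.14 or 9.23-fold (adjusted p = 6.99e-09). On both, the EGFR arrays stood above all others, and spi and wild type arrays lay together. Which part of the transcripts each probe set reads, and whether it reads the transgene, was not analysed here.

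The ligand gene spi had 10.09, 10.16 and 10.12 on EGFR arrays, against 9.35, 9.36 and 9.39 on spi arrays and 9.38, 9.31 and 9.40 on wild type arrays. It was 1.69-fold higher in EGFR than in spi (0.76 ± 0.04, adjusted p = 3.66e-08). The spi arrays did not lie below wild type: that difference was 0.00 with a 95% interval of -0.08 to 0.08. The level of spi RNA therefore does not check the spi label, and the allele's effect on RNA is not known here. Of the other measured ligand genes, Krn (Keren) differed by 0.22 (interval -0.66 to 1.09) and grk (Gurken) by 0.06 (-0.53 to 0.64), neither called. S, the gene of Star, which carries the ligand precursor to the site of cleavage, differed by 0.25 (0.03 to 0.47, adjusted p = 0.19).

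Genes that signalling through EGFR and Ras is known to induce, or that feed back on it, were called at 6 of 10 measured. All 6 rose in EGFR and none fell, beside 2.58% called higher and 3.51% called lower over all probe sets. The median difference was 0.69, beside -0.015 over all genes. The secreted and membrane inhibitors in that list were not called. For aos, the gene of Argos, which binds Spitz outside the cell, EGFR arrays had 4.68, 5.17 and 4.98, against 2.56, 3.29 and 4.03 on spi arrays and 3.22, 4.24 and 0.91 in wild type. The EGFR arrays were all above the spi arrays, but the spread among the dim values was wide and the difference of 1.65 had an interval of 0.30 to 3.01 (adjusted p = 0.152). For kek1, a membrane inhibitor, the groups overlapped and the interval ran from -1.40 to 2.08.

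Of the intracellular feedback and target genes, sty, edl, aop and phyl separated EGFR from both other groups. Sprouty, an inhibitor of receptor tyrosine kinase signalling encoded by sty, had 9.26, 9.35 and 9.02 on EGFR arrays, against 8.33, 8.03 and 8.15 on spi arrays and 8.30, 8.28 and 8.33 in wild type (1.04 ± 0.09, 2.06-fold, adjusted p = 7.89e-06). The ETS pathway modulator edl had 9.70, 9.66 and 9.53 on EGFR arrays, against 8.46, 8.53 and 8.64 on spi arrays and 8.34, 8.67 and 8.37 in wild type (1.09 ± 0.10, adjusted p = 1.47e-05). The gene of Yan, an ETS repressor that MAP kinase inactivates, is aop: it had 10.51, 10.50 and 10.67 on EGFR arrays, against 9.87, 9.84 and 9.89 on spi arrays and 9.96, 10.05 and 9.95 in wild type (0.70 ± 0.06, adjusted p = 8.29e-06). For phyl, an adaptor of a ubiquitin ligase and a Ras target in the eye, EGFR arrays had 7.95, 8.01 and 8.05, against 6.84, 6.93 and 6.64 on spi arrays and 6.75, 6.98 and 7.02 in wild type (1.20 ± 0.09, adjusted p = 2.86e-06). At all 4 genes the EGFR arrays stood alone and the spi arrays were not called against wild type, with differences of -0.13 for sty, 0.08 for edl, -0.12 for aop and -0.11 for phyl.

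At the brightest probe sets of the other called members of that list, the spi arrays were low. Mkp3, a phosphatase that switches off MAP kinase, had 6.84, 6.85 and 7.02 on EGFR arrays, against 6.38, 6.23 and 6.07 on spi arrays and 7.13, 6.67 and 6.96 in wild type. Its difference from spi was 0.68 ± 0.14 (adjusted p = 0.0103), with -0.02 for EGFR and -0.69 for spi against wild type. Without spi 1C its adjusted p was 0.0534, and its other probe set gave 1.12 and was not called. On that other probe set EGFR was at 1.36 and spi at 0.24 against wild type, neither called. Capicua, a repressor that MAP kinase signalling relieves, is encoded by cic, with 7.42, 7.07 and 7.31 on EGFR arrays, against 6.92, 6.79 and 6.69 on spi arrays and 7.59, 7.45 and 7.76 in wild type. It differed by 0.47 ± 0.11 (adjusted p = 0.0224), and the call was lost in 4 of the 6 fits that left out an array, with a highest adjusted p of 0.102 without EGFR 1A. The dimmer probe set of cic was at -0.27 (interval -1.27 to 0.73), and the mean over both was 0.10 and not called (adjusted p = 0.855). At the brighter probe set of cic, wild type lay above both genotypes, and the spi difference of -0.80 was called there. At the dimmer one EGFR was at 0.74 and spi at 1.01 against wild type, neither called.

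Cbl, the ubiquitin ligase that sends the activated receptor to degradation, did not separate the genotypes. EGFR arrays had 8.81, 8.81 and 8.82 and spi arrays 8.81, 8.86 and 8.75, with 8.22, 8.17 and 8.24 in wild type. The difference between EGFR and spi was 0.01 (interval -0.11 to 0.13), while each genotype stood above wild type, by 0.60 ± 0.06 in EGFR and by 0.59 ± 0.06 in spi. Its dimmer probe set did not share this, at -1.06 for EGFR and -0.63 for spi against wild type, neither called. The cascade between receptor and nucleus was not called by limma at any of 11 measured genes (median -0.18), and 0 of the 11 had an unadjusted p below 0.05. Its differences ran from -0.98 for the phosphatase gene PTP-ER to 0.17 for the MAP kinase kinase gene Dsor1. The intervals were -2.42 to 0.46 and -0.11 to 0.44.

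**Figure D1:**
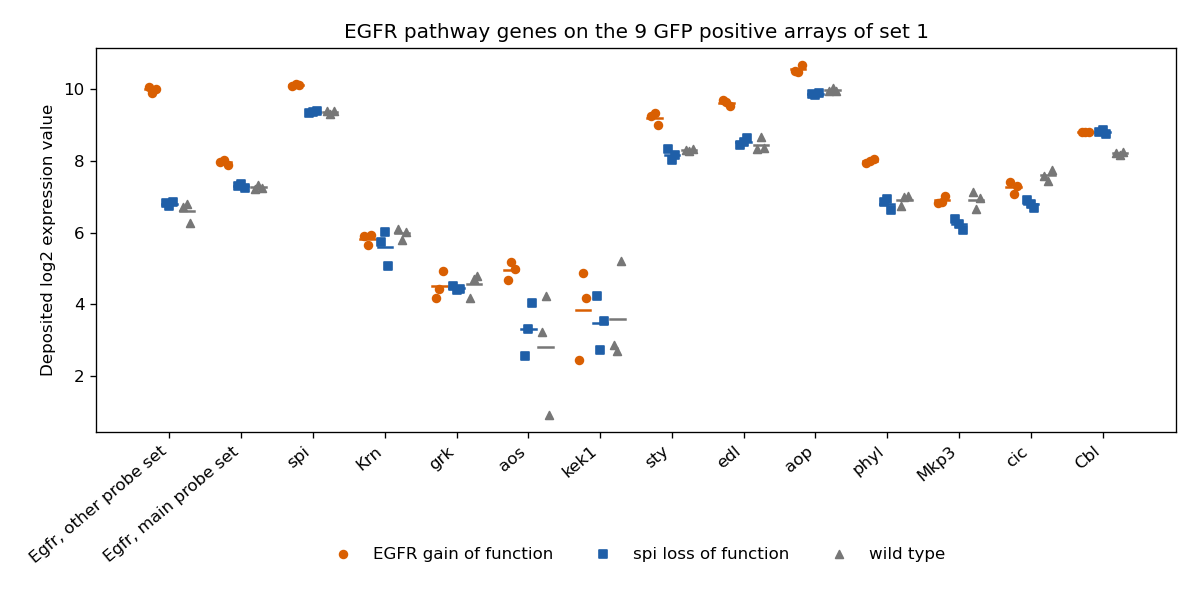
Deposited log2 values of EGFR pathway genes on each array (points) with group means (bars), for EGFR, spi and wild type. Genes other than Egfr are shown at their brightest probe set only. At sty, edl, aop and phyl the EGFR arrays stand above both other groups, at Mkp3 and cic the spi arrays are lowest, and at Cbl EGFR and spi lie together above wild type.

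Founder cell genes were mostly higher in EGFR where they were called. Of 23 measured, 9 rose in EGFR, 1 fell and 13 were not called. The shares over all probe sets were 2.58% called higher and 3.51% called lower. The median difference was 0.74, against -0.015 over all genes. All 10 called founder genes, the repressed Dr included, were also called between EGFR and wild type. Kr alone among them was called between spi and wild type too. The comparison of EGFR with wild type uses the same EGFR arrays that picked these genes, so it is not independent of their choice. The 9 that rose encode regulators of muscle identity, proteins of the fusion machinery, the matrix protein Nidogen and Phyllopod.

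The identity regulator nau, the fly member of the MyoD family, showed the largest rise of any gene at its brightest probe set. It had 6.98, 7.19 and 7.24 on EGFR arrays, against 3.14, 4.63 and 4.35 on spi arrays and 5.25, 4.34 and 4.64 in wild type (3.10 ± 0.44, 8.56-fold, adjusted p = 0.000687). For Kr, a zinc finger regulator, EGFR arrays had 6.87, 6.96 and 6.94, against 4.76, 4.49 and 5.43 on spi arrays and 6.04, 5.38 and 6.36 in wild type (2.03 ± 0.24, adjusted p = 0.000185). The EGFR arrays of Kr lay above all others, and the mean of wild type lay between those of EGFR and spi although its lowest array was below the highest spi array. EGFR differed from wild type by 1.00 (adjusted p = 0.0456) and spi by -1.03 (adjusted p = 0.0355).

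The EBF family factor kn (Collier) had 7.16, 7.45 and 7.12 on EGFR arrays, against 5.57, 5.81 and 5.56 on spi arrays and 5.96, 6.07 and 5.79 in wild type (1.60 ± 0.16, adjusted p = 2.83e-05). The homeobox gene eve, which marks a group of dorsal progenitors, had 7.75, 7.60 and 7.67 on EGFR arrays, against 6.63, 6.74 and 6.69 on spi arrays and 7.13, 6.58 and 6.80 in wild type (0.99 ± 0.15, adjusted p = 0.000969). The T-box gene org-1 differed by 0.68 ± 0.15 (adjusted p = 0.0158), a call lost without EGFR 1B, spi 1A or spi 1C, with a highest adjusted p of 0.0635 without spi 1A. The member phyl, described above, completes the 9.

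Among the fusion genes of founders, kirre encodes the Dumbfounded receptor that attracts fusion-competent cells. It had 6.65, 6.83 and 6.91 on EGFR arrays, against 5.37, 5.06 and 5.24 on spi arrays and 4.69, 5.07 and 4.24 in wild type (1.57 ± 0.22, 2.97-fold, adjusted p = 0.000712). The related receptor rst, with overlapping function, had 7.38, 7.59 and 7.33 on EGFR arrays, against 4.86, 5.77 and 5.81 on spi arrays and 4.53, 4.73 and 4.81 in wild type (1.95 ± 0.24, adjusted p = 0.000196). For rols, an adaptor protein that binds Dumbfounded, EGFR arrays had 7.53, 7.21 and 7.65, against 6.41, 6.33 and 5.85 on spi arrays and 6.68, 6.32 and 6.42 in wild type (1.27 ± 0.20, adjusted p = 0.00133). A further probe set of rols gave 1.61, and the dimmest gave -0.01. Ndg, the basement membrane protein Nidogen, was 1.28 ± 0.19 higher (adjusted p = 0.00108). All arrays of EGFR stood above all of spi at these genes, and none of the genes was called between spi and wild type.

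Not all identity genes followed. The homeobox gene Dr (muscle segment homeobox) had 5.03, 5.88 and 5.58 on EGFR arrays, against 6.29, 6.49 and 6.41 on spi arrays and 6.70, 6.78 and 6.57 in wild type (-0.90 ± 0.18, adjusted p = 0.00791). Its call was lost when the other groups of the set were left out of the fit. The Iroquois gene mirr (0.74, adjusted p = 0.0539) and the LIM homeobox gene tup (0.95, adjusted p = 0.0612) missed the threshold with intervals above 0. The homeobox genes slou (S59) and tx differed by -1.14 (interval -2.15 to -0.12) and -0.99 (-1.62 to -0.35), with adjusted p of 0.187 and 0.0679. For lbl, ap and caup the intervals included 0.

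Genes of fusion-competent myoblasts fell or were not called. Of 6 measured, none rose and 2 fell, beside 2.58% called higher and 3.51% called lower over all probe sets. The median of the list was -0.29. Blown fuse, needed for fusion and encoded by blow, had 6.76, 6.32 and 6.38 on EGFR arrays, against 8.17, 8.30 and 8.15 on spi arrays and 8.07, 8.05 and 8.16 in wild type (-1.71 ± 0.12, 3.28-fold lower, adjusted p = 1.6e-06). Vrp1, the WASp-interacting actin regulator, had 4.97, 4.32 and 4.84 on EGFR arrays, against 6.40, 6.80 and 6.71 on spi arrays and 7.31, 7.35 and 7.0 in wild type (-1.93 ± 0.38, 3.80-fold lower, adjusted p = 0.00726). The EGFR arrays were lowest at both genes, and spi was not called against wild type. The regulator lmd, which specifies these cells, was little apart at -0.24 (interval -0.43 to -0.05, adjusted p = 0.136). The receptors hbs and sns, which bind Dumbfounded from the other cell, were at -0.33 (-0.59 to -0.07) and 0.26 (-0.08 to 0.59), and the membrane protein sing at -0.02 (-0.59 to 0.54). The 5 dimmer probe sets of sns ran from -1.26 (-2.10 to -0.42, adjusted p = 0.0781) to 0.42, none called.

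**Figure D2:**
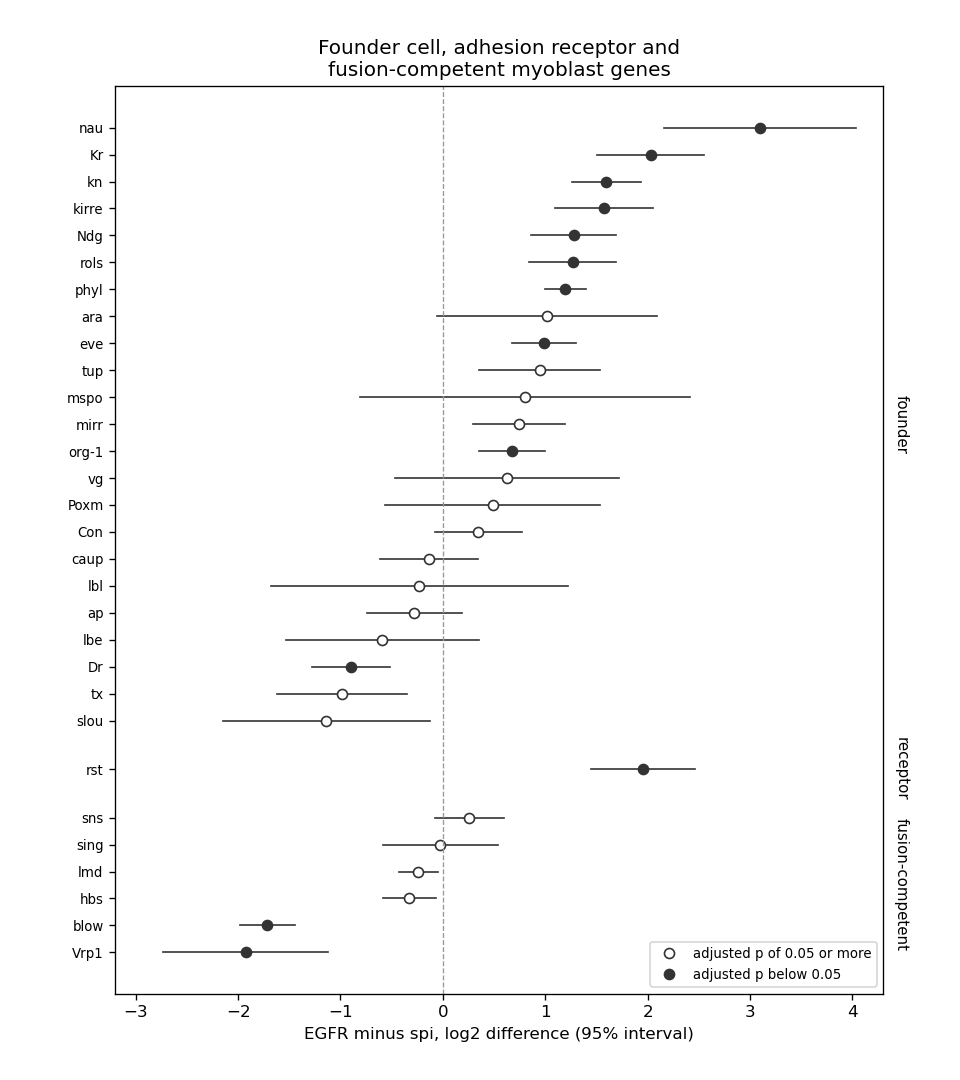
EGFR minus spi log2 difference with its 95% interval for founder cell genes, the receptor gene rst and fusion-competent myoblast genes; filled points are called. The called founder genes run from 3.10 (nau) to 0.68 (org-1) with Dr below 0 at -0.90, while blow and Vrp1 are the called fusion-competent genes.

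Of 8 measured genes of the early mesoderm list, 4 rose in EGFR, none fell and 4 were not called. Over all probe sets 2.58% were called higher and 3.51% lower, and the median of the list was 0.80. The list holds FGF signalling genes beside regulators. Its ligand genes pyr and ths, neither called, were at -1.01 (interval -1.94 to -0.08) and 0.47 (-0.21 to 1.15). Both were brighter on wild type GFP negative arrays of set 1 (means 5.15 and 5.20) than on GFP positive ones (2.80 and 4.52). The repressor sna (Snail) had 8.82, 8.86 and 8.89 on EGFR arrays, against 7.68, 7.86 and 7.64 on spi arrays and 8.46, 8.38 and 8.50 in wild type (1.13 ± 0.07, adjusted p = 4.96e-07). Wild type lay between, with EGFR called above it by 0.41 and spi below it at -0.72. In wild type cells of sets 2 and 3, sna was lower in GFP positive than in GFP negative cells (-0.32, adjusted p = 0.00493). The zinc finger factor zfh1 had 8.58, 8.53 and 8.72 on EGFR arrays, against 7.30, 6.93 and 7.08 on spi arrays and 8.35, 8.10 and 8.20 in wild type (1.51 ± 0.13, adjusted p = 1.14e-05). The called departure from wild type was that of spi, at -1.11. The ubiquitin ligase gene mib2, needed for muscle integrity, had 8.96, 8.89 and 8.99 on EGFR arrays, against 7.87, 7.60 and 7.86 on spi arrays and 8.10, 8.00 and 7.80 in wild type (1.17 ± 0.09, adjusted p = 3.35e-06). The FGF receptor gene htl was higher by 1.19 ± 0.32 (adjusted p = 0.0407), a call lost whichever of the 6 arrays was left out, with a highest adjusted p of 0.12 without spi 1C. The mesodermal determinant twi, whose enhancer drives the GAL4, differed by 0.35 (interval -0.01 to 0.72).

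Counts in other mesodermal lists stand beside shares of 2.58% called higher and 3.51% called lower over all probe sets. The visceral mesoderm gene bap differed by 0.42 ± 0.10 (adjusted p = 0.0195, lost in 4 of 6 fits without an array, up to 0.0943 without spi 1C), the only call among 5 measured. Of 11 heart and dorsal mesoderm genes, 2 rose, eve and svp, and the list's median was -0.20. The nuclear receptor gene svp, which marks a subset of heart cells, had 6.97, 6.58 and 7.29 on EGFR arrays, against 4.73, 5.45 and 5.31 on spi arrays and 6.40, 5.94 and 6.00 in wild type (1.78 ± 0.24, adjusted p = 0.000462), and its other probe set gave 2.62. None of 9 structural muscle genes was called by limma (median 0.07), and 0 of the 9 had an unadjusted p below 0.05.

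Of 13 measured neural genes, 4 rose in EGFR relative to spi, none fell and 9 were not called (median 0.43). Shares over all probe sets were 2.58% called higher and 3.51% called lower. The Snail family genes esg and wor were 1.61 ± 0.14 (adjusted p = 1.14e-05) and 0.90 ± 0.12 (adjusted p = 0.000405) higher in EGFR. For wor the EGFR arrays had 7.25, 7.16 and 7.25, against 6.50, 6.47 and 6.00 on spi arrays and 7.29, 7.22 and 7.24 in wild type, so the spi arrays were low. The neural cell fate determinant pros had 7.68, 7.67 and 7.59 on EGFR arrays, against 6.71, 6.53 and 6.92 on spi arrays and 7.90, 7.87 and 8.11 in wild type (0.93 ± 0.11, adjusted p = 0.000195), again with spi lowest. Its partner mira differed by 0.43 ± 0.08 (adjusted p = 0.00635), but its dimmer probe set was at -0.21 (interval -1.26 to 0.83) and the mean over both was not called (adjusted p = 0.862). For esg, in contrast, EGFR stood above wild type by 1.14. The proneural gene l(1)sc, which also marks muscle progenitor clusters, was 1.18 ± 0.16 higher (adjusted p = 0.000494), the 1 of 8 proneural genes called. The glial marker repo (0.53) and the neuronal marker elav (0.13) had intervals that included 0. The mean of the neural markers, of which 2 of 5 measured were called higher in EGFR, was 6.49 in EGFR, 5.99 in spi and 6.85 in wild type. The part of neural cells in these differences was not tested.

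Hemocyte and fat body genes moved both ways. Of 15 measured, 5 rose and 2 fell, beside 2.58% called higher and 3.51% called lower over all probe sets. But with an array left out 3 to 4 rose and 1 to 2 fell. The first count was over 1.5 times lower without any EGFR array, spi 1A or spi 1C, and the second without EGFR 1A, EGFR 1B or any spi array. Papilin, the matrix protein encoded by Ppn, was higher by 0.57 ± 0.09 (adjusted p = 0.00123; 0.01 on its dimmer probe set), and the secreted factor Idgf1 by 2.51 ± 0.43 (adjusted p = 0.00255). The others that rose were svp, Idgf2 (1.92) and the collagen gene Col4a1 (1.24). The hemocyte regulator gcm differed by -0.37 ± 0.07 (adjusted p = 0.00749), with spi arrays 0.59 above wild type, and the GATA factor srp by -0.56 (adjusted p = 0.0335). The hemocyte marker mean, which includes gcm and srp, was 7.41 in EGFR and 7.77 in spi, and the part of hemocytes in these values was not tested.

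Notch targets were split, with 4 of 13 measured higher (2.58% over all probe sets) and 2 lower (3.51%) in EGFR (median 0.10). The first count was 2 without spi 1C, and the second was 1 without EGFR 1A, EGFR 1C or any spi array. The bHLH repressor gene E(spl)mbeta-HLH was higher by 0.62 ± 0.07 (adjusted p = 0.000104) and E(spl)m2-BFM by 0.58 ± 0.09 (adjusted p = 0.00121), and E(spl)m3-HLH by 0.35, a call lost without spi 1C (adjusted p = 0.055). For E(spl)mbeta-HLH the spi arrays lay 0.54 below wild type (-0.54, adjusted p = 0.000678). The Bearded family gene Tom, which antagonises the Notch pathway, went the other way. It had 10.78, 10.90 and 10.77 on EGFR arrays, against 11.33, 11.39 and 11.43 on spi arrays and 11.47, 11.43 and 11.47 in wild type (-0.57 ± 0.04, adjusted p = 2.5e-06).

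Counts in the cell cycle, glycolysis, heat shock and ribosomal protein lists stand beside 2.58% higher and 3.51% lower over all probe sets. Of 10 cell cycle genes, 4 rose (2 without any single EGFR array), among them the S phase cyclin CycE (0.71 ± 0.10, adjusted p = 0.000883) and its regulator E2f1 (0.59 ± 0.10, adjusted p = 0.00255). The ribonucleotide reductase gene RnrL (1.77, adjusted p = 0.0226) and PCNA (0.22, adjusted p = 0.0349) lost the call in 3 and 5 of the 6 fits without an array. Of 11 glycolysis and glycogen genes 2 fell (1 without EGFR 1C or spi 1C): Eno, encoding enolase, at -1.95 ± 0.37 (adjusted p = 0.00571), and Pgm1, encoding phosphoglucose mutase, at -2.19 ± 0.50 (adjusted p = 0.0187). Both calls were lost when the other groups of the set were left out of the fit. The Hsp40 co-chaperone gene DnaJ-1 had 7.0, 7.04 and 7.13 on EGFR arrays, against 8.48, 8.61 and 8.60 on spi arrays and 7.81, 7.72 and 7.51 in wild type (-1.50 ± 0.11, adjusted p = 1.6e-06). Its wild type arrays lay between, with EGFR at -0.62 and spi at 0.88, both called. Hsp68, of the Hsp70 family, was at -1.20 ± 0.18 (adjusted p = 0.000883), the other of 6 heat shock genes called. None of 6 apoptosis genes, 13 ectodermal, 8 endodermal and yolk, or 8 germ cell genes was called by limma. At an unadjusted p below 0.05 there were 0 apoptosis, 3 ectodermal, 3 endodermal and yolk, and 1 germ cell gene. Of 37 ribosomal protein genes, 1 rose and 2 fell, none of them falling without EGFR 1A (median 0.01).

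The largest differences of all, 12 in each direction, lay mostly outside these lists. Of the 12 largest falls, each judged at its brightest probe set, 7 departed from wild type on the spi side only, 3 on the EGFR side only and 2 on neither. Fmo-1, a flavin-containing monooxygenase, had 1.62, 1.53 and 2.17 on EGFR arrays, against 7.23, 6.92 and 7.19 on spi arrays and 2.76, 2.00 and 0.85 in wild type (-5.34 ± 0.47, 40.6-fold lower, adjusted p = 1.14e-05). CG11600 had 3.26, 2.19 and 1.12 on EGFR arrays, against 7.61, 7.40 and 7.52 on spi arrays and 1.30, 0.89 and 1.52 in wild type (-5.32 ± 0.47). The kinesin-like gene Klp54D was at -4.46, CG11854 at -3.92, twz at -3.46, CG10445 at -3.39 and CG5618 at -3.02. At these 7 genes the spi arrays stood above every EGFR and wild type array. The ADAM metalloprotease gene mmd (-3.30) had its spi arrays highest on all 3 of its probe sets, with differences of -3.53 and -3.21 on the other probe sets. At its brightest probe set mmd was on neither side, with spi 1.99 above wild type (adjusted p = 0.129). On the other probe sets spi was called above wild type, by 4.18 and 3.94, and EGFR was not called.

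On the EGFR side, gol (Goliath), a ubiquitin ligase gene of the visceral mesoderm, had 1.38, 2.90 and 2.96 on EGFR arrays, against 5.81, 5.94 and 5.81 on spi arrays and 5.66, 5.61 and 4.90 in wild type (-3.44 ± 0.62, adjusted p = 0.00415). The zinc finger gene sug had 4.32, 3.78 and 3.52 on EGFR arrays, against 6.78, 6.82 and 7.07 on spi arrays and 7.44, 7.66 and 7.90 in wild type (-3.02 ± 0.24, adjusted p = 4.72e-06). The lipid transfer gene rdgBbeta was at -3.16. Its EGFR, spi and wild type means, and those of CG11854, all lay below the array medians of 4.57 to 4.615. On neither side was CG3594 (-3.12), with EGFR at -0.92 and spi at 2.20 against wild type, neither called. Its call between EGFR and spi was lost in 5 of the 6 fits without an array, with a highest adjusted p of 0.109 without spi 1C.

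Of the 12 largest rises, 5 departed from wild type on the EGFR side only, 2 on the spi side only and 5 on neither. Beside nau, the EGFR side held PGRP-SC2, a peptidoglycan-cleaving amidase, with 6.90, 6.32 and 6.25 on EGFR arrays, against 4.23, 3.79 and 3.77 on spi arrays and 3.50, 3.19 and 3.50 in wild type (2.56 ± 0.36, adjusted p = 0.000654). CG42855 (2.92), the chitin-binding protein gene obst-H (2.67) and CG8563 (2.63) were on the same side. The EGFR arrays of obst-H spread widely, at 1.03, 3.19 and 3.05. Its call was lost when the other groups of the set were left out of the fit, as were those of Tektin-C and wdp. Idgf1 (2.51) and Crag (2.74) were on the spi side. The others were CG11899 (2.74), the tektin gene Tektin-C (2.69), the leucine-rich repeat gene wdp (2.59), the peptide hormone gene Dh31 (2.56) and the glycosyltransferase gene Ugt303A1 (2.53). Several of these rises were between dim values. At obst-H, CG11899, wdp, Dh31, Idgf1 and Crag the EGFR, spi and wild type means all lay below the array medians of 4.57 to 4.615. Of these 12, wdp, Dh31 and Ugt303A1 lost the call in 5, 5 and 6 of the 6 fits without an array, Tektin-C in 3 and Crag in 2. The highest adjusted p was 0.174 for wdp without spi 1C. On spi 1B wdp had 3.04, against a lowest EGFR array of 3.54, and on spi 1A Tektin-C had 4.59, against a lowest EGFR array of 4.97.

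**Figure D3:**
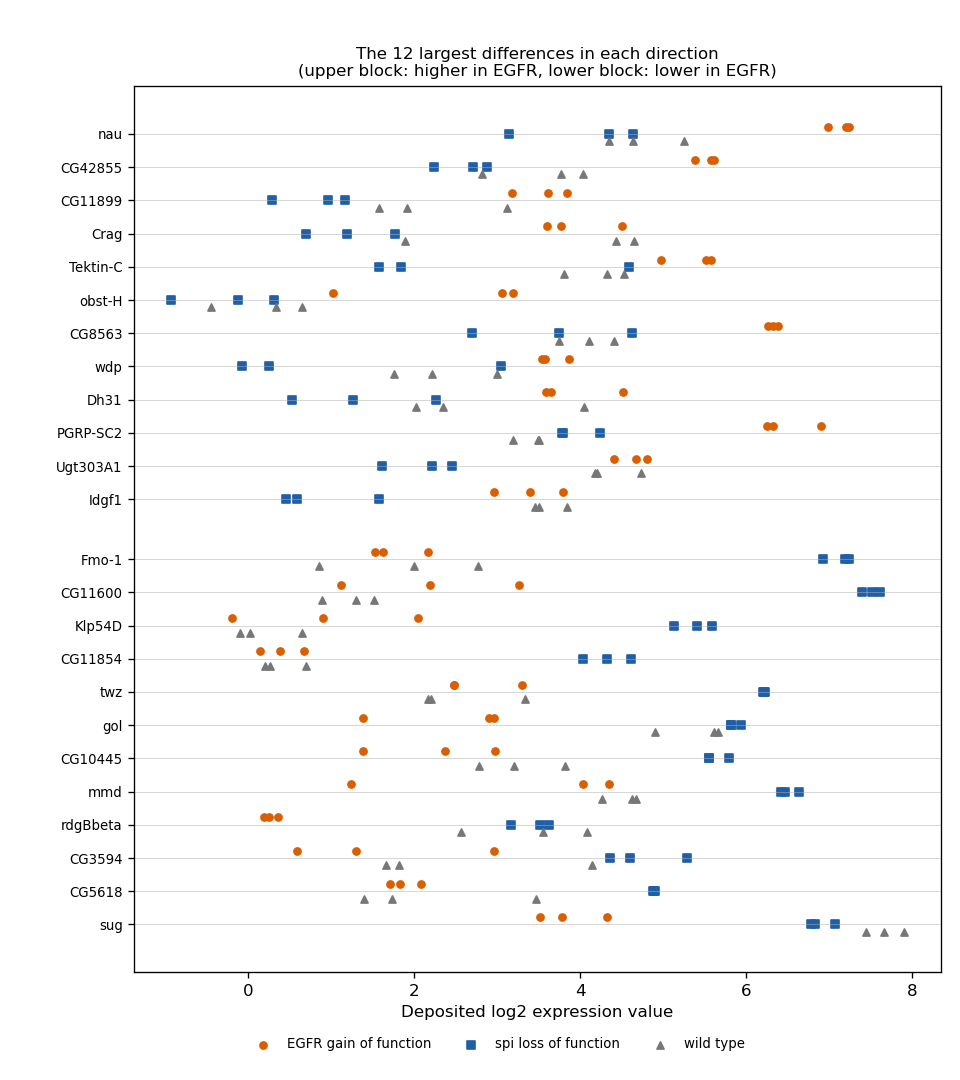
Deposited log2 values of the 12 largest rises (upper block) and 12 largest falls (lower block) of EGFR relative to spi, on each array of EGFR, spi and wild type. The wild type points lie beside EGFR for Fmo-1, CG11600, Klp54D, CG11854 and twz, and beside spi for gol, rdgBbeta and PGRP-SC2.

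The mean of EGFR and spi differed from wild type at 280 probe sets (2.0%), 149 higher and 131 lower. Both genotypes are set against the same 3 wild type arrays there, so a departure of those arrays enters the values of both. The piRNA pathway gene krimp had 0.34, 0.94 and 0.23 on EGFR arrays and 0.16, 0.04 and 0.68 on spi arrays, against 3.80, 3.60 and 3.36 in wild type (-3.19, adjusted p = 0.000892). For CG6959, EGFR arrays had 3.33, 3.48 and 3.58 and spi arrays 3.21, 3.38 and 3.11, against 5.70, 6.58 and 6.16 in wild type (-2.80, adjusted p = 2.38e-05). The neuronal capsid gene Arc1 had 5.80, 5.59 and 5.72 on EGFR arrays and 5.42, 4.88 and 5.19 on spi arrays, against 2.94, 2.94 and 3.24 in wild type (2.39, adjusted p = 0.00131). EGFR and spi differed by 0.21, 0.23 and 0.54 at these genes, none called. The other named falls of the mean were CG32037 (-2.86), Ugt302C1 (-2.73), sug (-2.29) and CG30103 (-2.10). The other named rises were CG11600 (3.61), Klp54D (2.96), Fmo-1 (2.57), Ppat-Dpck (2.28) and the POU factor gene pdm3 (2.10). The mean can be called where only 1 genotype left wild type. Against wild type, CG11600, Klp54D, Fmo-1 and pdm3 were called in spi only, at 6.27, 5.18, 5.24 and 3.52. In EGFR they were at 0.95, 0.73, -0.10 and 0.68. The fall of sug was called in EGFR only, with spi at -0.78.

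Set 2 holds arrays that the comparison does not share, with activated Ras, which acts below the receptor, in Twist-expressing cells. Its fit also held the Arm, Arm+Ras, Pnt and Tkv gain of function, wg loss of function and GFP negative arrays. There Ras and wild type differed at 641 probe sets (4.59%), 345 higher (2.47%) and 296 lower (2.12%). Of the 360 probe sets higher in EGFR than in spi, 72 were also higher with Ras, which is 20.0% of the 360 and 20.9% of the 345. Only 9 of the 360 (2.5%, or 3.04% of the 296) were lower with Ras, near the background of 2.12%. Of the 490 lower in EGFR, 47 were lower with Ras (9.59%, and 15.9% of the 296), and 32 were higher (6.53%, and 9.28% of the 345). The share of 20.0% was 15.5% without EGFR 1B, 27.2% without EGFR 1A and 36.2% without the arrays lettered A. The receptor and ligand genes were themselves higher with Ras, Egfr by 0.61 (adjusted p = 0.0444) and spi by 0.39 (adjusted p = 0.000361).

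List genes lay on the same side in set 2 to different degrees. Of the 6 called feedback and target genes, 5 were called in the same direction with Ras: aop by 1.68 ± 0.14, edl by 1.17 ± 0.10, sty by 1.08 ± 0.20, Mkp3 by 0.86 ± 0.25 and phyl by 0.78 ± 0.19. Of the 10 called founder genes 6 were, with nau at 2.51, kn at 1.96, org-1 at 1.70, Ndg at 1.08, phyl at 0.78 and eve at 0.72. The receptor genes kirre (0.92, adjusted p = 0.425) and rst (1.38, adjusted p = 0.366) were not called there. Of the fusion-competent genes blow was lower with Ras too, at -1.05 ± 0.10 (adjusted p = 9.88e-07), while Vrp1 at -2.04 was not called (adjusted p = 0.0922). The genes gol and sug were lower with Ras as well, at -2.90 (adjusted p = 0.00659) and -2.57 (adjusted p = 0.0156). The spi-side gene twz was higher with Ras by 2.63 (adjusted p = 0.000805), opposite to its fall in EGFR relative to spi. Of the other named spi-side genes, Fmo-1, CG11600, Klp54D and CG11854 were not called with Ras.

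**Figure D4:**
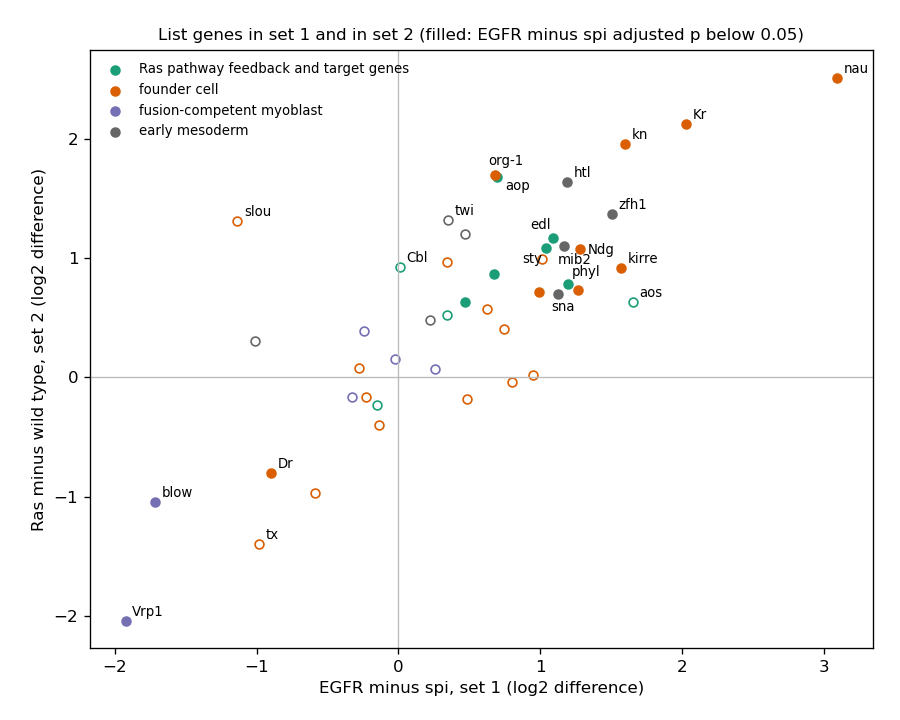
EGFR minus spi in set 1 (x axis) beside Ras minus wild type in set 2 (y axis), both log2 differences, for genes of 4 lists; filled points are called between EGFR and spi. The genes nau, kn, edl, sty and org-1 are high on both axes, blow is low on both, and slou lies at -1.14 in set 1 and 1.31 in set 2.

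Sets 2 and 3 hold sorted wild type cells with and without GFP, also outside the comparison, which show where genes are expressed in wild type embryos. They differed at 1354 probe sets (9.69%), 686 higher (4.91%) and 668 lower (4.78%) in GFP positive cells. Of the 490 probe sets lower in EGFR than in spi, 128 were higher in GFP positive cells (26.1%, and 18.7% of the 686), while 19 were lower (3.88%, and 2.84% of the 668). Of the 360 higher in EGFR, 31 were higher in GFP positive cells (8.61%, and 4.52% of the 686) and 54 lower (15%, and 8.08% of the 668). The fusion-competent genes blow (1.70) and Vrp1 (1.53), and gol (2.43) and sug (2.54), were among those higher in GFP positive cells and lower in EGFR. The founder genes Ndg (3.50) and org-1 (1.28), mib2 (1.97) and htl (2.43) were higher in GFP positive cells and higher in EGFR. Among genes higher in EGFR and lower in GFP positive cells were aop (-0.84), sna (-0.32), wor (-0.42) and CycE (-1.18).

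**Figure D5:**
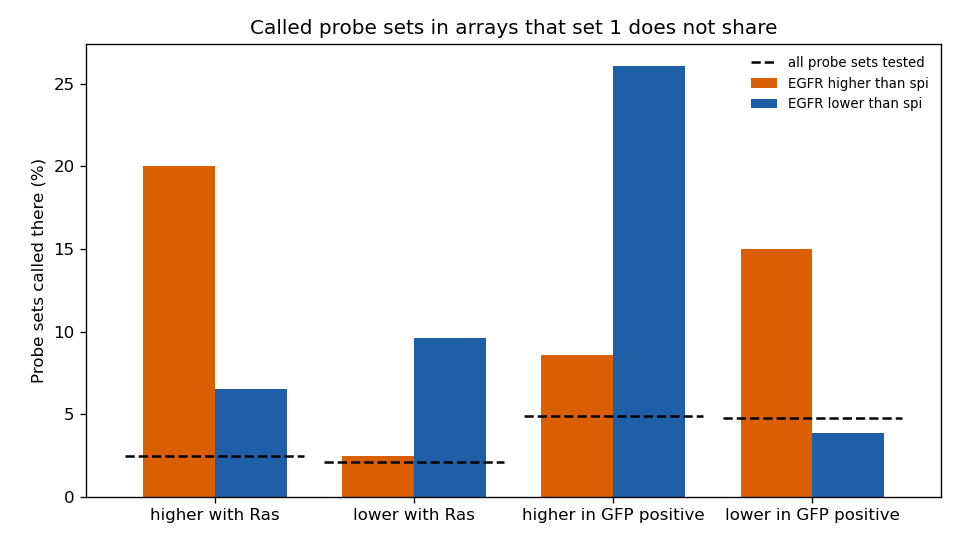
Percent of the probe sets higher (360) and lower (490) in EGFR than in spi that were called with activated Ras in set 2, and in GFP positive against GFP negative cells of sets 2 and 3. Dashed lines give the percent over all probe sets tested: 20.0% against 2.47% for higher in EGFR and higher with Ras, and 26.1% against 4.91% for lower in EGFR and higher in GFP positive cells.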

How the data were processed

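Expression was measured on 54 Affymetrix arrays, of which 3 EGFR, 3 spi and 3 wild type GFP positive arrays of set 1 carry the main comparisons. The deposited values were taken as log2 expression from their range (-3.08 to 13.58), so the base of the log is inferred. Per the submitters' processing notes, the authors used the affy package, and the background correction, normalization and summary method are not given in the sources used here. Of 14010 probe sets, 44 controls were left out, and 13966 were tested. A supplied platform annotation gave 1 symbol to 12442 of them, several to 327 and none to 1197.

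No further normalization was applied. For set 1 and for set 2, limma 3.58.1 in R 4.3.3 fitted all arrays of the set with eBayes and a variance trend. GFP positive and GFP negative cells were compared in the same way on the wild type arrays of sets 2 and 3 alone, with the set as a covariate. The p-values were adjusted over all probe sets by Benjamini-Hochberg, with calls below 0.05. Each gene was represented by its brightest probe set. Named were Egfr and spi, the 12 largest called differences each way, all called members of the EGFR, Ras, founder, fusion-competent and adhesion lists, up to 4 called members of each other list, and up to 6 genes each way in the mean of EGFR and spi against wild type. The comparison, the gene lists and the tests were chosen with earlier results of these data known. In simulated data for EGFR minus spi with 13966 probe sets, 16.4% of 67 probe sets changed 1.5-fold were recovered. The share was 41.8% of 67 changed 2-fold and 65.2% of 66 changed 4-fold. Fewer probe sets were changed there than were called in the data, so recovery in the data may differ. Alternatives covered the variance trend, a replicate block, dim probe sets, single arrays, the arrays lettered A, the arrays in the fit, the normalization, a fold threshold and the mean over a gene's probe sets. Promoter sequences and some genes are not reported here. Tables were made with Python 3.11.15, pandas 2.3.3, numpy 2.4.6 and matplotlib 3.10.9.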

Additional observations from a re-analysis of the deposited data

How the results depend on the processing

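No called difference of a named gene changed direction under the alternatives run. Of the uncalled ones, CG30103 (-0.38) was 0.29 without spi 1C and krimp (0.21) was -0.005 without EGFR 1B, and the median difference over all probe sets was 0.015 with arrays centred. The 850 calls between EGFR and spi became 489 without the variance trend, 538 with a floor of 1.5-fold, 302 without the arrays lettered A and 493 to 972 with 1 array left out. With only the EGFR and spi arrays in the fit there were 690 calls, 555 of them shared with the 850. For EGFR against wild type, the 382 calls became 165 without the trend, 112 without the arrays lettered A, 137 when the other groups of the set were left out of the fit, and 257 to 339 with 1 array left out. For spi against wild type, the 445 became 203, 127 without the arrays lettered A, and 232 to 416 with 1 array left out. For the mean of both against wild type, the 280 became 121, 85 without the arrays lettered A, and 146 to 270 with 1 array left out. For Ras against wild type, 641 became 394 without the trend. With the replicate letter as a replicate block, EGFR against spi gave 1108 calls, EGFR against wild type 474 and spi against wild type 584. The letters were not treated as pairs, since deviations of same-lettered EGFR and spi arrays correlated at 0.04, 0.001 and -0.016. Of 72 named genes called between EGFR and spi, 55 kept the call whichever array was left out, 58 without the trend and 46 without the arrays lettered A. With only the EGFR and spi arrays in the fit, 60 kept it, and the 12 lost included Dr, Eno, Pgm1, mmd and obst-H. The number of arrays limits what could be called.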

Other observations

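The following genes were chosen after their values were seen, by their symbols, and were not tested as groups. Over all probe sets, 2.58% were called higher and 3.51% lower in EGFR. Of 10 axon guidance genes, 7 were higher in EGFR than in spi and none was lower, with a median difference of 0.68. They were drl, NetB, comm, fra, comm2, dnt and unc-5, which encode guidance ligands, receptors and regulators of receptor sorting, and 1 of the 10 was higher with Ras. Of 64 mitochondrial ribosomal protein genes, 7 were lower in EGFR, none was higher and 50 lay below 0, with a median of -0.21, and 6 of the 64 were lower with Ras. Of 66 genes of the respiratory chain and ATP synthase, 9 were lower, among them COX4, COX5A and ATPsyndelta, 37 of the 66 lay below 0, the median was -0.04, and 7 of the 66 were lower with Ras. Of 11 mitochondrial import genes, Tom20, Tim9a and Tom70 were lower, and none was called with Ras. Of 29 vacuolar ATPase genes, 4 were lower, while with Ras 3 were higher and 1 was lower. Of 6 Arp2/3 genes, which nucleate branched actin, Arpc3A and Arpc1 were lower, and with Ras 1 was higher and 1 lower.

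The ion channel gene CngA, also chosen after its values were seen, had 6.54, 7.03 and 6.91 on EGFR arrays, against 0.69, 1.51 and 2.70 on spi arrays and 8.49, 8.82 and 8.53 in wild type on 1 probe set, a difference of 5.19. Its brighter probe set differed by 0.41 and was not called (adjusted p = 0.321).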
